A study of Mus musculus with 6 samples.

Results

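Cartilage matrix genes were followed in the sensory epithelia of the newborn mouse inner ear: the 10 genes Acan, Vcan, Hapln1, Hapln3, Matn1, Matn2, Matn3, Matn4, Comp and Chad, chosen by name from among 39179 listed genes. All 10 symbols were found as 1 Ensembl gene each. RNA was sequenced from 3 cochlear and 3 vestibular libraries of wild-type C57Bl/6J mice at postnatal day 0, with males and females pooled, and no treatment is labelled. The epithelia of 20 inner ears of 10 mice were dissected, and 450 ng of RNA entered each library. The labels do not say whether the 3 libraries of a tissue came from separate pools of ears, so the spread between them, on which every SD, SE and p below rests, may be technical.

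Aggrecan, encoded by Acan, is the large chondroitin sulfate proteoglycan that gives cartilage its resistance to compression. Many aggrecan molecules bind along 1 chain of hyaluronan, and a link protein, encoded by Hapln1, locks each of them in place; versican (Vcan) belongs to the same family of hyaluronan-binding proteoglycans, the hyalectans. Matrilins (Matn1 to Matn4) are adaptor proteins that tie collagen fibrils and proteoglycans to each other, COMP is a member of the thrombospondin family that binds collagen, and chondroadherin (Chad) is a leucine-rich repeat protein that joins collagen and chondrocytes. In the inner ear such genes are used by the cartilage of the otic capsule and also, in part, by the connective tissue and acellular matrices around the sensory epithelium.

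Most of these genes had higher mRNA levels in the vestibule, whereas Matn1 stood the other way, by the widest margin of the genes tested. Levels are given as CPM (the counts of a gene scaled to the counts on all genes of the library), and differences as log2 fold changes, vestibule minus cochlea, from edgeR's quasi-likelihood test with TMM scaling and Benjamini-Hochberg adjustment over 14723 genes that reached 1 CPM in no fewer than 3 libraries. A gene was called at an adjusted p of 0.05 or below. Matn3 and Hapln3 fell below the filter. Of the 8 genes tested, 6 were called higher in the vestibule (Acan, Vcan, Hapln1, Matn2, Matn4 and Comp), 1 higher in the cochlea (Matn1) and 1 was not called (Chad). Over all genes tested, 27.4% were called, 15.8% higher in the vestibule and 11.6% higher in the cochlea, that is, 2325 and 1711 genes. These counts were 1342 and 925 without vestibular library 2, 1522 and 1227 without vestibular library 1, 1764 and 1035 without cochlear library 2, and 2754 and 1251 without TMM. Comp passed the filter only through its vestibular libraries; without it the counts were 5, 1 and 1 of 7 genes. In bulk tissue, fewer cells of a type and less RNA per cell cannot be told apart.

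**Figure D1:**
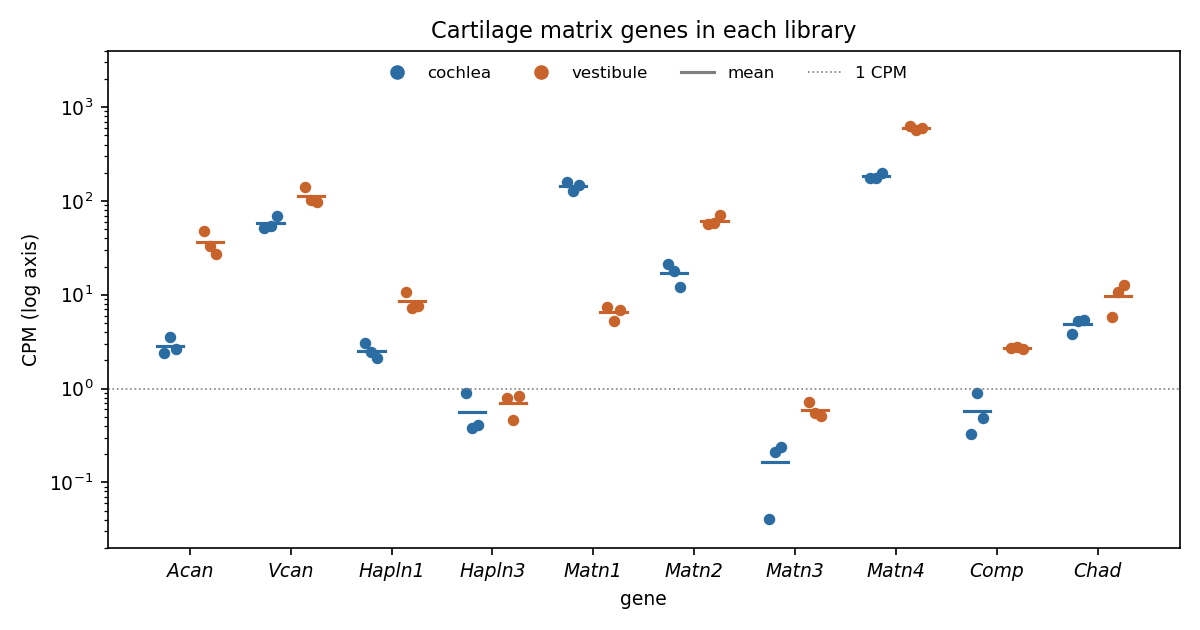
CPM of the 10 cartilage matrix genes in each library, on a log axis; points are libraries (3 cochlear, 3 vestibular), bars are means, and the dotted line marks 1 CPM. Acan rose from a mean of 2.85 to 36.1 CPM and Matn1 fell from 145 to 6.48 CPM, while the points of Hapln3 overlap.

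Acan was at 2.41, 3.51 and 2.63 CPM in cochlear libraries 1, 2 and 3, and at 48.2, 33.1 and 27.1 CPM in vestibular libraries 1, 2 and 3. The lowest vestibular library stood far above the highest cochlear one. The log2 fold change was 3.52 (SE 0.25, edgeR adjusted p = 2.56e-05), and the mean CPM was 12.7-fold higher in the vestibule. The cochlear values rest on 59, 101 and 77 counts, and the vestibular ones on 690 to 1621. Acan lies on the plus strand of chromosome 7 (GRCm38, chr7:79053483-79115099).

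Matn1, a matrilin best known from cartilage, was at 158, 129 and 148 CPM in the cochlear libraries and at 7.37, 5.26 and 6.83 CPM in the vestibular ones. The 2 tissues were far apart. The log2 fold change was -4.60 (SE 0.17, edgeR adjusted p = 2.95e-06), a 22.4-fold higher mean in the cochlea. Matn1 is on the plus strand of chromosome 4 (chr4:130944385-130955475).

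Matn4, a matrilin with a wider tissue distribution, moved against Matn1. Its level was 177, 175 and 201 CPM in the cochlea and 637, 573 and 599 CPM in the vestibule. The groups did not overlap, and the libraries of each tissue lay close together, with a coefficient of variation of 8.13% in the cochlea and 5.39% in the vestibule. The log2 fold change was 1.59 (SE 0.13, edgeR adjusted p = 4.66e-05). Matn4 is on the minus strand of chromosome 2 (chr2:164389393-164405160) and overlaps Rbpjl on the other strand, which was at 2.66 to 3.73 CPM in the cochlea and 10.1 to 21.6 CPM in the vestibule. The libraries were stranded, but the strand setting of the counting is not given in the sources used here.

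The bases just before the transcription start of these 3 genes are shown because Acan and Matn4 were higher in the vestibule and Matn1 in the cochlea. The sequences are from RefSeq (GRCm38.p6), 250 bases each, written 5′ to 3′ on the strand of the gene, and cover chr7:79052976-79053225 (plus strand, Acan), chr4:130944135-130944384 (plus strand, Matn1) and chr2:164405161-164405410 (minus strand, the first of 2 entries for Matn4). Capitals mark the letters CCAAT, the core of the CCAAT box, and the letters GGGCGG of the GC box, each read on either strand.
Acan: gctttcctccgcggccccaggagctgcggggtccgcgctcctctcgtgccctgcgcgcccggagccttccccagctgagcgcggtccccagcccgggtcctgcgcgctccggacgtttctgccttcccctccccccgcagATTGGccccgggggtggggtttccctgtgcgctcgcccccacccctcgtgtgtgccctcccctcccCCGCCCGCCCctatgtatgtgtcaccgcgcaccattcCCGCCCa
Matn1: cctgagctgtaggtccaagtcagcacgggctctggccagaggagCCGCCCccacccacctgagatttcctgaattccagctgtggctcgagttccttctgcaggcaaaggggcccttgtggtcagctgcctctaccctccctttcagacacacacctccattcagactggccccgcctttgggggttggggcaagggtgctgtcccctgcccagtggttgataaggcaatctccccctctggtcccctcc
Matn4: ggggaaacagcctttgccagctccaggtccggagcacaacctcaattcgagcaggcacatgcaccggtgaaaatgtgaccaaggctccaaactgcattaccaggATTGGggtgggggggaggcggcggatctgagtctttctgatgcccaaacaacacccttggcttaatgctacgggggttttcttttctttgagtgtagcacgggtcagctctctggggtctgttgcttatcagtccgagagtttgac
CCAAT was found once in the Acan window, 110 bases before the start, and once in the Matn4 window, 146 bases before it, and not in that of Matn1. GGGCGG was found 3 times for Acan (2 of them overlapping), once for Matn1 and not in this window of Matn4. The second Matn4 entry held GGGCGG once, 6 bases before its start, and no CCAAT. Of the other genes called higher in the vestibule, Vcan held CCAAT and Hapln1 did not, so the letters did not follow the direction of every call. Of the genes without a call, Matn3 held CCAAT, and Hapln3 and Chad did not. Of 32851 mouse promoters of this length, 33.8% hold CCAAT and 32.7% hold GGGCGG. The letters TATAAA of the TATA box, held by 12.4% of promoters, were in none of the 3 windows. Letters that SOX factors can bind were not found in them either, neither ACAAAG, held by 16.5% of promoters, nor the shorter ACAAT, held by 27.7%. A match of letters is a description and not a binding site. The start used by RefSeq for Acan lies before the start of the GENCODE gene.

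Vcan, the hyalectan of loose connective tissue, was at 52.0, 54.1 and 69.3 CPM in the cochlear libraries and at 142, 102 and 97.3 CPM in the vestibular ones. The groups did not overlap, and the difference was much smaller than that of Acan, with a log2 fold change of 0.84 (SE 0.17, edgeR adjusted p = 0.00627). The 2 proteoglycans were compared directly by their ratio within each library. The log2 ratio of Acan to Vcan counts was -4.43, -3.95 and -4.72 in the cochlear libraries, and -1.56, -1.62 and -1.84 in the vestibule. The means differed by 2.69, so that Acan was 6.45-fold higher relative to Vcan in the vestibule. The exact two-sided permutation test gave p = 0.1, the smallest that 3 libraries against 3 allow. With 4 ratios tested in this way, the Benjamini-Hochberg adjusted value was also 0.1 for each of the 4.

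Hapln1, the cartilage link protein, was at 3.07, 2.46 and 2.09 CPM in the cochlea and at 10.8, 7.28 and 7.61 CPM in the vestibule, again with no overlap. Its log2 fold change was 1.63 (SE 0.24, edgeR adjusted p = 0.00113). Hapln1 was thus called in the direction of Acan with a smaller fold change. The log2 ratio of Hapln1 to Acan counts was 0.35, -0.51 and -0.34 in the cochlear libraries, and -2.16, -2.18 and -1.83 in the vestibule. The difference of the means was -1.89 (exact permutation p = 0.1), that is, 3.71-fold less Hapln1 for each count of Acan in the vestibule. Hapln1 (chr13:89539796-89611652, plus strand) and Vcan (chr13:89655312-89742509, minus strand) are neighbours, 43659 bases apart, with 0 protein-coding genes between them.

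Hapln3, another link protein, was at 0.899, 0.382 and 0.411 CPM in the cochlea and at 0.802, 0.467 and 0.824 CPM in the vestibule. The 2 tissues overlapped. These values stand for 11 to 27 counts, and no difference was detectable at this depth; fitted without the filter, the log2 fold change was 0.19 (edgeR adjusted p = 0.809). Hapln3 (chr7:79115102-79131018, minus strand) lies 2 bases beyond the end of Acan and is read towards it, so that the 3′ ends of the genes meet. Acan was 12.7-fold and Hapln3 1.24-fold higher in the vestibule by mean CPM.

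**Figure D2:**
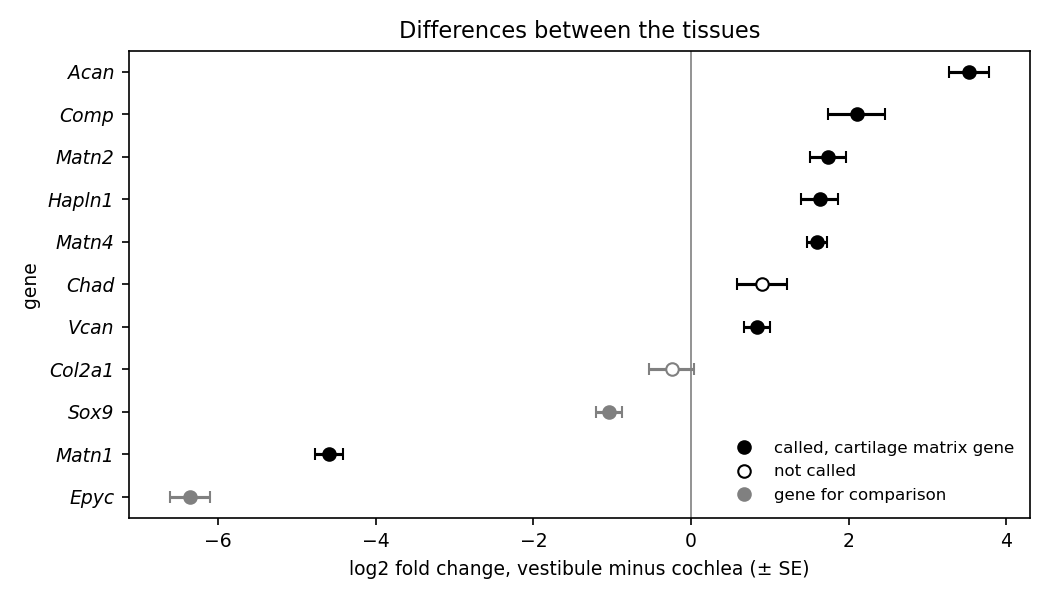
Log2 fold change, vestibule minus cochlea, with its SE (horizontal bars) from the edgeR fit, for the 8 cartilage matrix genes tested (black) and Col2a1, Sox9 and Epyc for comparison (grey); open points were not called. Acan stands highest at 3.52, and Matn1 at -4.60 is passed only by Epyc at -6.36.

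Matn2, a matrilin of connective tissue and basement membranes, was at 21.5, 17.9 and 12.0 CPM in the cochlea and at 56.4, 57.7 and 71.5 CPM in the vestibule. The groups were well separated, and the log2 fold change was 1.74 (SE 0.23, edgeR adjusted p = 0.000695). Matn2 is on chromosome 15 (chr15:34306677-34436273, plus strand). Its antisense neighbour 9430069I07Rik had no counts in 5 of the 6 libraries.

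Matn3, a matrilin of growth plate cartilage, was nearly undetected, with 1, 6 and 7 counts in the cochlea (0.0409, 0.208 and 0.24 CPM) and 24, 14 and 13 counts in the vestibule (0.713, 0.545 and 0.51 CPM). Every vestibular library was above every cochlear one. It was too low to be tested with the filter; without it the log2 fold change was 1.66 (SE 0.56, edgeR adjusted p = 0.0447). Matn1 and Matn3, both known chiefly from cartilage, thus lay on opposite sides of the comparison.

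Within the matrilin family the most abundant gene was Matn1 in the cochlea and Matn4 in the vestibule. Per length of gene (RPKM, reads per kilobase, of the counts on genes, scaled as CPM is), Matn1 made up 64.1% ± 1.99 (SD, n = 3) of the summed RPKM of Matn1, Matn2 and Matn4 in the cochlea and 2.36% ± 0.288 in the vestibule. Matn4 made up 31.6% ± 2.64 and 85.0% ± 1.64, and Matn2 4.26% ± 1.18 and 12.6% ± 1.66. With GENCODE exon lengths the Matn2 shares were 2.48% and 7.63%. None of the shares from the deposited values overlapped between the tissues. The log2 ratio of Matn1 to Matn4 counts was -0.16, -0.43 and -0.45 in the cochlear libraries, and -6.43, -6.77 and -6.45 in the vestibule. The means differed by -6.21, a 73.8-fold change of the ratio (exact permutation p = 0.1).

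Among the hyalectans, Acan took 3.93% ± 0.982 of the summed RPKM of the 4 hyalectans in the cochlea and 31.0% ± 2.54 in the vestibule (SD, n = 3). Vcan was the first of the family in both, with 40.2% ± 0.997 and 50.3% ± 1.46. The remainder was neurocan and brevican, hyalectans best known from nervous tissue: Ncan was at 26.0% ± 5.67 in the cochlea against 7.29% ± 0.145 in the vestibule, and Bcan at 29.9% ± 5.62 against 11.4% ± 1.97. These shares describe the libraries and were not tested.

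**Figure D3:**
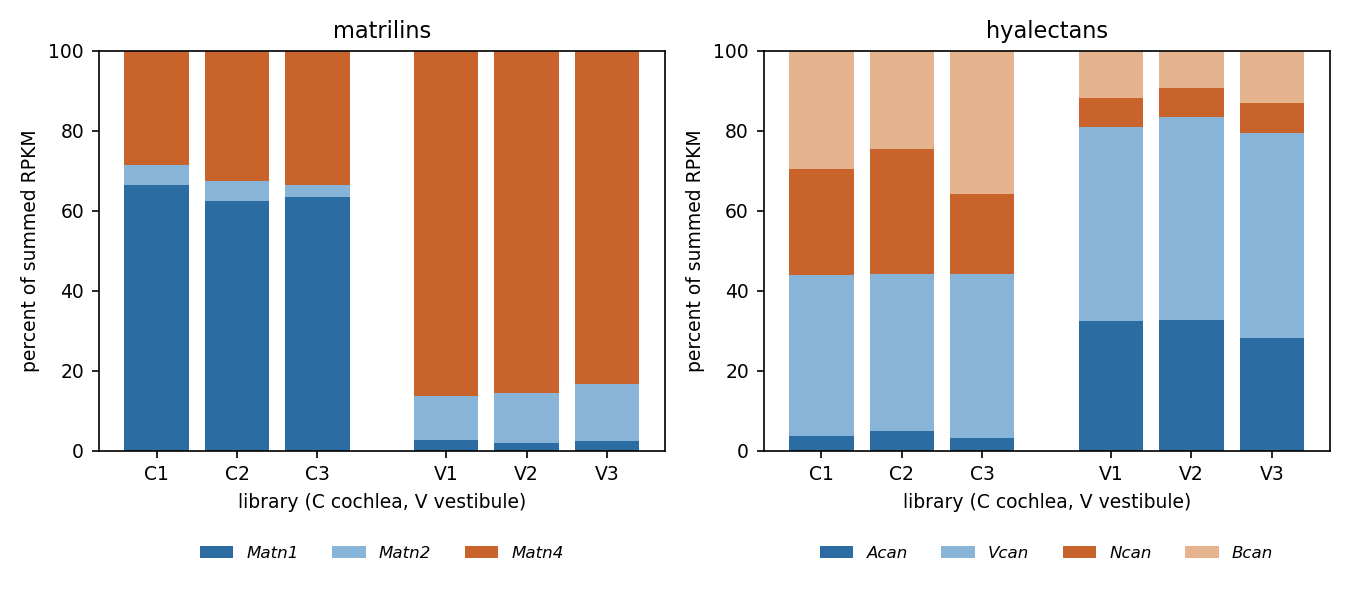
Share of the summed RPKM in each library (C1 to C3 cochlea, V1 to V3 vestibule) of 3 matrilins (left) and 4 hyalectans (right), in percent. Matn1 takes 62.5% to 66.4% of the matrilins in the cochlea and 2.03% to 2.58% in the vestibule, and Acan takes 3.09% to 5.0% and 28.1% to 32.6% of the hyalectans.

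Comp was close to the detection limit in the cochlea, at 0.327, 0.903 and 0.479 CPM (8, 26 and 14 counts), and at 2.70, 2.76 and 2.67 CPM in the vestibule (68 to 91 counts). The groups did not overlap. The coefficient of variation of the vestibular libraries was 1.79%. Counting alone spreads counts of this size more widely, so that value is no measure of precision. The log2 fold change was 2.1 (SE 0.36, edgeR adjusted p = 0.00285). Since the gene entered the test through its vestibular libraries alone, its call is not independent of the filter.

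Chad was at 3.80, 5.28 and 5.44 CPM in the cochlea and at 5.85, 10.7 and 12.8 CPM in the vestibule. The lowest vestibular library was only just above the highest cochlear one. The log2 fold change was 0.90 (SE 0.32), and the edgeR adjusted p of 0.0717 missed the threshold. The call depended on the setting: without vestibular library 1 the log2 fold change was 1.20 with an edgeR adjusted p of 0.0116, and with all 6 libraries Chad was called by DESeq2, without TMM and without the filter (adjusted p from 0.0288 to 0.0431). Chad lies within Acsf2 of the other strand (chr11:94565047-94569127, plus strand), a gene with 38.5 to 49.0 CPM in the cochlea and 39.7 to 50.1 CPM in the vestibule.

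The genes did not rise and fall as 1 block among libraries of the same tissue. In vestibular library 1, Acan, Hapln1 and Vcan stood above their tissue means, by 0.40, 0.29 and 0.28 on the log2 scale. In that library Chad stood 0.72 and Matn2 0.18 below the mean (deviations of -0.72 and -0.18). Chad was highest in vestibular library 3, at 0.53 above the mean, where Acan was lowest at -0.30. In the cochlea, Matn2 was lowest in library 3 at -0.50, and Acan and Comp were highest in library 2 at 0.37 and 0.83. The cochlear Comp values rest on only 8, 26 and 14 counts. With 3 libraries in a tissue these are descriptions.

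Levels of different genes were compared per length, from the deposited log2 RPKM values. In the cochlea the order was Matn1 (72.6 ± 7.38 RPKM, SD, n = 3), Matn4 (35.7 ± 2.91), Matn2 (4.80 ± 1.34), Vcan (4.05 ± 0.656), Chad (2.89 ± 0.539), Hapln1 (0.505 ± 0.0977), Acan (0.389 ± 0.0787) and Comp (0.239 ± 0.123). The ranges of Matn2 and Vcan overlapped, as did those of Hapln1 and Acan and of Acan and Comp. The place of Matn2 depended on the length used: with GENCODE exon lengths its mean was 2.74 RPKM, below Vcan and Chad. In the vestibule the order was Matn4 (117 ± 6.30), Matn2 (17.3 ± 2.34), Vcan (7.88 ± 1.71), Chad (5.83 ± 2.11), Acan (4.92 ± 1.48), Matn1 (3.25 ± 0.549), Hapln1 (1.70 ± 0.380) and Comp (1.12 ± 0.0201). From Vcan down to Matn1 each gene overlapped the next in that order. Matn1 went from the first place to the sixth, and Acan from the seventh to the fifth.

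Set against type II collagen, the main fibril collagen of cartilage, aggrecan was scarce in both tissues: per length, Col2a1 was at 1900 ± 599 RPKM in the cochlea and 1750 ± 247 RPKM in the vestibule (SD, n = 3), and Acan at 0.389 and 4.92 RPKM. In the single libraries it was at 7740, 11500 and 14900 CPM in the cochlea and 12100, 10100 and 9190 CPM in the vestibule. The tissues overlapped, and it was not called (log2 fold change -0.25, SE 0.28, edgeR adjusted p = 0.559). The log2 ratio of Acan to Col2a1 counts was -11.65, -11.68 and -12.47 in the cochlear libraries, and -7.97, -8.25 and -8.41 in the vestibule, a difference of 3.72, or 13.2-fold (exact permutation p = 0.1). Sox9, the transcription factor that drives both genes in chondrocytes, had a lower level in the vestibule, at 67.3, 70.2 and 51.8 CPM against 96.9, 129 and 130 CPM in the cochlea. Its log2 fold change was -1.04 (SE 0.17, edgeR adjusted p = 0.00189), opposite to that of Acan. Which cells of the dissected tissue held the Sox9 and Col2a1 transcripts was not tested.

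The other genes of cartilage did not follow 1 direction. Of 8 cartilage collagens, 1 was called, Col10a1 of hypertrophic cartilage, higher in the vestibule by 3.15 (SE 0.50, edgeR adjusted p = 0.00181). It reached 1 CPM in only 1 cochlear library and met the filter through the vestibule, so its call is not independent of the filter. The list median was 0.18, beside 0.0048 over all genes tested and 1.61 over the 8 tested genes that open this account, Comp included. Of 8 other cartilage matrix genes tested, 4 were called higher in the vestibule, led by Ucma (1.58) and Cilp2 (1.305), and 2 in the cochlea, Cytl1 and Epyc. Epyc, the small leucine-rich proteoglycan epiphycan, was at 1230 to 1740 CPM in the cochlea and 15.9 to 24 CPM in the vestibule, with a log2 fold change of -6.36 (SE 0.25, edgeR adjusted p = 3.37e-06), the same direction as Matn1. Of 7 chondrocyte regulators tested, 3 were called higher in the cochlea, Fgfr3 (-4.29), Sox5 (-1.14) and Sox9, and 1 in the vestibule, Runx2 (1.35). Fgfr3 is also a marker of cochlear supporting cells at this age. Whether Sox9, Sox5 and Epyc were read from cartilage cells or from other cells was not tested. Of the other hyalectans and link proteins, Ncan was called higher in the cochlea (-1.297, SE 0.20, edgeR adjusted p = 0.00173), Bcan was not called (-0.88, adjusted p = 0.0504), and Hapln2 and Hapln4 were below the filter.

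Among the genes that build the sugar chains of these proteoglycans, more were called higher in the cochlea than in the vestibule. Of 20 genes of chondroitin sulfate synthesis, 8 were called higher in the cochlea, 1, Chsy3, in the vestibule, and 11 were not called (median -0.13). Over all genes tested, 11.6% were called higher in the cochlea and 15.8% in the vestibule. The widest differences were those of the sulfotransferases Chst13 (-3.92) and Chst15 (-2.70), and of Papss2 (-2.91), which makes the sulfate donor. Chst3, Chst7 and Chst11 were also called higher in the cochlea. Papss1 (-0.10), Chst12 (0.16) and Slc26a2 (0.14) were not called. Sulfation as a group was not tested. Chst13 passed the filter only through its cochlear libraries, so its call, 1 of the 8, is not independent of the filter. Chst15 was at 338, 356 and 449 CPM in the cochlea and at 63.0, 62.3 and 65.7 CPM in the vestibule. Acan and Vcan, which carry such chains, were called in the other direction. Of 9 genes of hyaluronan synthesis, binding and breakdown, 3 were called higher in the cochlea, the receptor Cd44 (-1.65), the synthase Has3 (-1.48) and the hyaluronidase Cemip2 (-1.43), and 0 in the vestibule by edgeR (median -0.17). In the vestibular direction 1 gene, Hyal1, had an unadjusted p under 0.05, and DESeq2 and limma-voom each called 1. Of 8 genes of hyalectan cleavage, 3 were called higher in the vestibule, among them the protease Adamts20 (1.20) and the inhibitor Timp3 (1.10), and 1 in the cochlea, the protease Adamts15 (-2.17), with a median of 0.37. Of the other thrombospondins, the family of Comp, Thbs1 was called higher in the vestibule (1.35) and Thbs3 in the cochlea (-1.38), and Thbs2 and Thbs4 were not called.

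**Figure D4:**
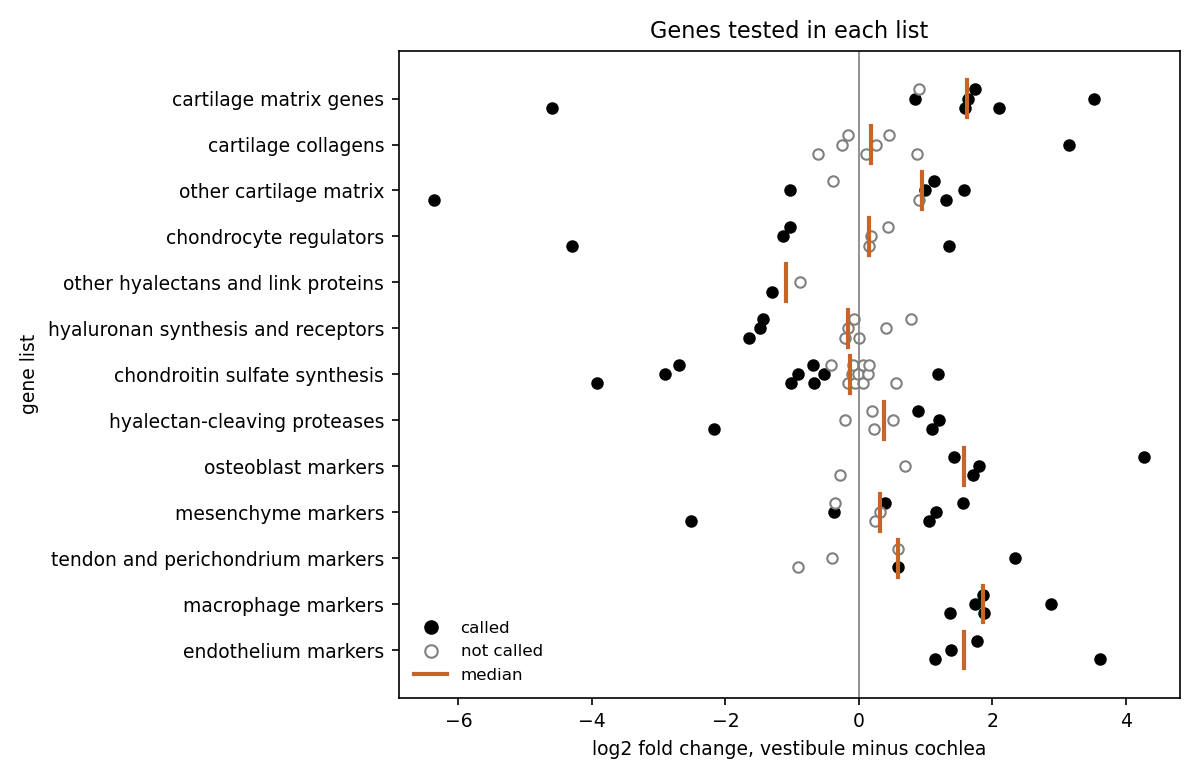
Log2 fold change, vestibule minus cochlea, of each gene tested in 13 lists; filled points were called, open points were not, and the vertical bar is the list median. The cartilage matrix genes lie between -4.60 and 3.52 with a median of 1.61, and the chondroitin sulfate genes have a median of -0.13.

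Markers of other cells that the dissected epithelia could hold differed too. Of 6 osteoblast markers tested, 4 were called higher in the vestibule, led by Ibsp (4.27), Spp1 (1.80) and Sp7 (1.71), and the summed level of all 9 listed was 57.7 to 221 CPM in the cochlea and 448 to 712 CPM in the vestibule, most of it from Spp1 (46.1 to 206 and 411 to 661 CPM). Ibsp, too, reached 1 CPM in only 1 cochlear library, so this call also depends on the filter. Bglap and Bglap2, markers of mature osteoblasts, were near 0 in both tissues, with 0 to 5 counts in each library. All 5 macrophage markers (Mrc1, Csf1r and Cd68 first by size) and all 4 endothelium markers (Kdr, Pecam1 and Cdh5 first) were called higher in the vestibule, with summed levels of 75.0 to 86.6 against 358 to 386 CPM and of 56.1 to 87.9 against 330 to 472 CPM. Of 9 mesenchyme markers, 4 were called higher in the vestibule, led by Col1a1 and Pdgfra, and 2 in the cochlea, led by Lum. Their sums were 5230 to 5930 CPM in the cochlea and 8040 to 9280 CPM in the vestibule. The largest part came from Col1a2 (1870 to 2500 and 4620 to 5250 CPM). Fmod and Scx were called higher in the vestibule among 5 tendon and perichondrium markers (49.5 to 65.2 and 159 to 173 CPM). The part of these cells in the levels of Acan, Vcan, Hapln1, Matn2, Matn4 and Comp was not tested.

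The depth was 24464483 to 33664793 counts on genes per library, so that 1 CPM stood for at least 24 counts. Hair cell markers, which define the labelled tissue, were present in both tissues, with sums of 623 to 800 and 1090 to 1330 CPM; 5 of 8 were called higher in the vestibule (Slc17a8, Otof and Gfi1 among them) and 1 in the cochlea. Supporting cell markers were called higher in the cochlea for 5 of 7 genes (Fgfr3, Hes5 and Jag1 first) and in the vestibule for 1 (Otog). Hes5 passed the filter only through the cochlea. The sum of the 7 went the other way, at 2060 to 2790 CPM in the cochlea and 3060 to 3940 CPM in the vestibule. Otog alone was at 663 to 1180 and 1890 to 2350 CPM. Of 4 neuron markers tested, 1 (Tubb3) was called, in the cochlea, and 3 without cochlear library 3. By edgeR, 0 of 3 skeletal muscle and 0 of 4 red blood cell markers tested were called (1 and 0 at an unadjusted p under 0.05, and 0 by DESeq2 and limma-voom). Muscle markers reached a sum of 244 CPM in 1 library, cochlear library 3, against 4.01 CPM in the lowest; without that library the 7 cartilage matrix genes called were still called in the same directions.

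The genes whose log2 CPM was most like that of Acan over the 6 libraries, among 10437 genes with a mean of at least 10 CPM, were Col6a2, a chain of collagen VI (Pearson's r = 0.9987), Egfl7, a secreted protein of endothelium (0.998), Stab1, a scavenger receptor of macrophages and endothelium (0.9979), Frem1, a basement membrane protein (0.9975), and Btc, a ligand of the EGF receptor (0.9975). All share the 6 libraries and the split between 2 tissues, so the values are descriptions. Their log2 fold changes were between 1.08 and 2.48, below the 3.52 of Acan.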

How the data were processed

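The authors aligned the stranded, paired-end reads with TopHat2 2.1.0 to GRCm38 and deposited, for each library, whole counts per Ensembl gene from HTSeq 0.5.4p5, without normalization. SAMtools 0.1.18 and edgeR 3.4.2 are also named in the submitters' processing notes. A second deposited table holds log2 RPKM values of 14722 genes, scaled by library size. The 5 summary lines of each count table (18.47% to 20.6% of its counts) stayed out of library sizes and tests. Genes that reached 1 CPM in no fewer than 3 libraries were tested in edgeR 4.0.16 (R 4.3.3) by the quasi-likelihood test with TMM scaling and an FDR of 0.05, without a block. SE is the fold change divided by the root of the F value. The alternatives were DESeq2 1.42.0, limma-voom (limma 3.58.1), other scalings, filters and thresholds, a replicate block, and leaving out each library. Ratios were tested with exact permutation tests (scipy 1.17.1). Log2 CPM used a prior count of 0.5. Gene positions are those of GENCODE vM21 on GRCm38; promoters are from RefSeq, which had no entry for Matn2 and Comp. The motifs were chosen after the data were seen. Named genes are the 10 cartilage matrix genes, Col2a1 and Sox9, up to 3 called genes of each list with the widest difference, and the 5 most like Acan; other genes, such as Cytl1, Chsy3, Bcan, Thbs2, Thbs4, Hyal1, Bglap, Bglap2 and the overlapping genes, were named after their values were seen. The genes and lists were chosen with earlier results of these data known. The result of 1 marker list is not reported here.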

Additional observations from a re-analysis of the deposited data

How the results depend on the processing

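Among 108 recomputed fold changes of the 8 tested genes, 104 kept their direction and their side of the threshold, none reversed, and 4 differed, all of them calls of Chad that appear in DESeq2 (0.88, adjusted p = 0.0288), without TMM (1.01, adjusted p = 0.0431), without the filter (0.88, adjusted p = 0.0349) and without vestibule replicate 1 (1.20, adjusted p = 0.0116); over all alternatives its adjusted p was 0.0116 to 0.202, and the cause was not tested. Comp fell below the filter when 1 CPM was asked of all libraries or a vestibular library was left out. Acan ranged from 3.31 to 3.73 and Matn1 from -4.66 to -4.44. Same-numbered libraries did not deviate together (correlations of -0.175, -0.26 and -0.474), and differently numbered ones gave -0.27 to 0.406. Deviations of 3 libraries from their own mean depend on each other, so these values cannot show whether same-numbered libraries share animals. With the replicate block 1609 and 1009 genes of all tested were called instead of 2325 and 1711, the 7 cartilage matrix genes stayed called, and the counts became 1 for mesenchyme in the cochlea, 1 for tendon in the vestibule and 0 for hair cells in the cochlea; 6 other list counts changed by at most 1.5 times, among them chondroitin sulfate genes in the cochlea (6) and osteoblast markers in the vestibule (3). Without cochlea replicate 3 the counts became 1 for hyaluronan genes in the vestibule, 1 for mesenchyme in the cochlea and 3 for neurons in the cochlea; 4 others changed by at most 1.5 times, among them chondroitin sulfate genes in the cochlea (6) and osteoblast markers in the vestibule (5). Without TMM, the median of all genes moved to 0.125. With GENCODE exon lengths Matn2 was at 2.74 RPKM in the cochlea, below Vcan and Chad, and at 9.88 RPKM in the vestibule, and Col2a1 at 1230 and 1130 RPKM. The shares with these lengths, an alternative chosen after seeing the data, moved by over 1.5 times only for Matn2. Genes under about 30 counts in a library (Matn3, Hapln3, Comp in the cochlea) are limited by depth.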
